A study of Ictidomys tridecemlineatus with 31 samples.

Results

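The genes that carry long-chain fatty acids into mitochondria and oxidize them there, with 2 of their transcriptional regulators, were followed in kidneys of 13-lined ground squirrels (13-LGS) through 6 states of the hibernation year. The set was chosen by gene symbol, which picked 1 row for each of 9 genes out of 12863 in the table (Cpt1a, Cpt2, Acadvl, Acadl, Acadm, Hadha, Hadhb, Ppara, and Ppargc1a). Kidneys of 31 animals were measured by poly(A) RNA-Seq, each kidney from 1 animal. Summer active (SA) animals were fattening in August, and spring dark (SpD) animals were homeothermic after their last torpor but still in the dark hibernaculum. Interbout aroused (IBA) animals were warm between torpor bouts, entrance (Ent) animals were cooling into torpor, and early arousing and later arousing (LAr) animals were rewarming from it. All were captive 13-LGS of both sexes, staged by body temperature, anesthetized with isoflurane, and perfused with cold buffer before dissection. Apart from the anesthetic, no drug or genetic change was named. The groups held 5 SA, 5 IBA, 5 Ent, 5 early arousing, 6 LAr, and 5 SpD animals. Animals 137 (SA) and 113 (LAr), which the study left out of its differential expression (DE) analysis, are shown apart here, leaving 29 animals. Experiment 1 supplied 9 animals (IBA, Ent, and SpD) and experiment 2 supplied 22, so SA and both arousal groups came from experiment 2 alone.

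Fatty acids are first activated to acyl-CoA, and CPT1A on the outer mitochondrial membrane then hands the acyl group to carnitine so that it can cross. CPT2 returns it to CoA inside. Each turn of β-oxidation starts with an acyl-CoA dehydrogenase suited to the chain length, and for long chains the remaining steps are done by the mitochondrial trifunctional protein. PPARα, a nuclear receptor for fatty acids, and PGC-1α, its coactivator, raise transcription of many of these genes in fasting. The proximal tubule, which does most of the reabsorption in the kidney, draws much of its energy from fatty acids, and a hibernator lives on stored fat through the winter.

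The table gives regularized log (rlog) values, that is, the authors' library-size-normalized count on the log2 scale, shrunken where counts are low, after batch removal. A difference of 1 is a 2-fold change in these values, and folds of the counts themselves may differ. Fitted differences come from 1 limma fit over all states with sex and experiment as terms, and DE means a Benjamini-Hochberg adjusted p (q) under 0.05 over all 12863 genes. It gives no read counts, and the depth of each library is unknown. Levels are compared between animals for 1 gene, and not between genes, because rlog values are not scaled to transcript length. All 12 proximal tubule markers looked for were in the table. Their mean rlog level was 15.14 ± 0.15 (SD, n = 4) in SA, 14.31 ± 0.36 (n = 5) in IBA, and between 14.56 and 14.76 in the other states. None of 4 fat markers (Ucp1, Adipoq, Plin1, Cidea) and none of 3 adrenal cortex markers (Cyp11b1, Cyp11a1, Star) had a row. In pieces of whole kidney, fewer cells of a type and less RNA per cell cannot be told apart.

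Whether the pathway changed between the hibernation season and the active season was asked first, as the mean of IBA, Ent, early arousal, and LAr minus the mean of SA and SpD. Both trifunctional protein subunits, the carnitine acyltransferase Cpt1a, and the dehydrogenases Acadl and Acadvl were higher in the hibernation season. The dehydrogenase Acadm and the coactivator Ppargc1a were lower, and Cpt2 and Ppara did not pass the test. Thus 7 of the 9 genes were DE, 5 higher and 2 lower in hibernation, where 33.4% of all genes were DE (16.6% higher and 16.8% lower). At the study's stricter q of 0.001, 3 of the 9 passed, against 9.73% of all genes. With each active state taken alone, a choice made after the data were seen, 5 of the 9 were DE against SA (29.2% of all genes) and 4 against SpD (21.9%). The median fitted difference was 0.20 over the 9 genes and close to 0 (2e-04) over all genes. In the same season contrast, 4 of the 12 proximal tubule markers were lower in hibernation and none higher, with a median of -0.25. Of the other kidney markers, 2 of 3 each of the collecting duct principal, collecting duct intercalated, and endothelium lists, and 1 of 3 each of the thick limb, medulla, and fibroblast lists, were lower in hibernation. None was higher, and none of 3 macrophage or 2 distal convoluted tubule markers was DE. Their part in these results was not tested. When the 6 states were tested together, 8 of the 9 genes were DE and Ppara was not (q = 0.1334), where 46.1% of all genes were DE. At q under 0.001 it was 3 of 9 (Acadl, Hadha, and Hadhb), against 9.34% of all genes.

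**Figure D1:**
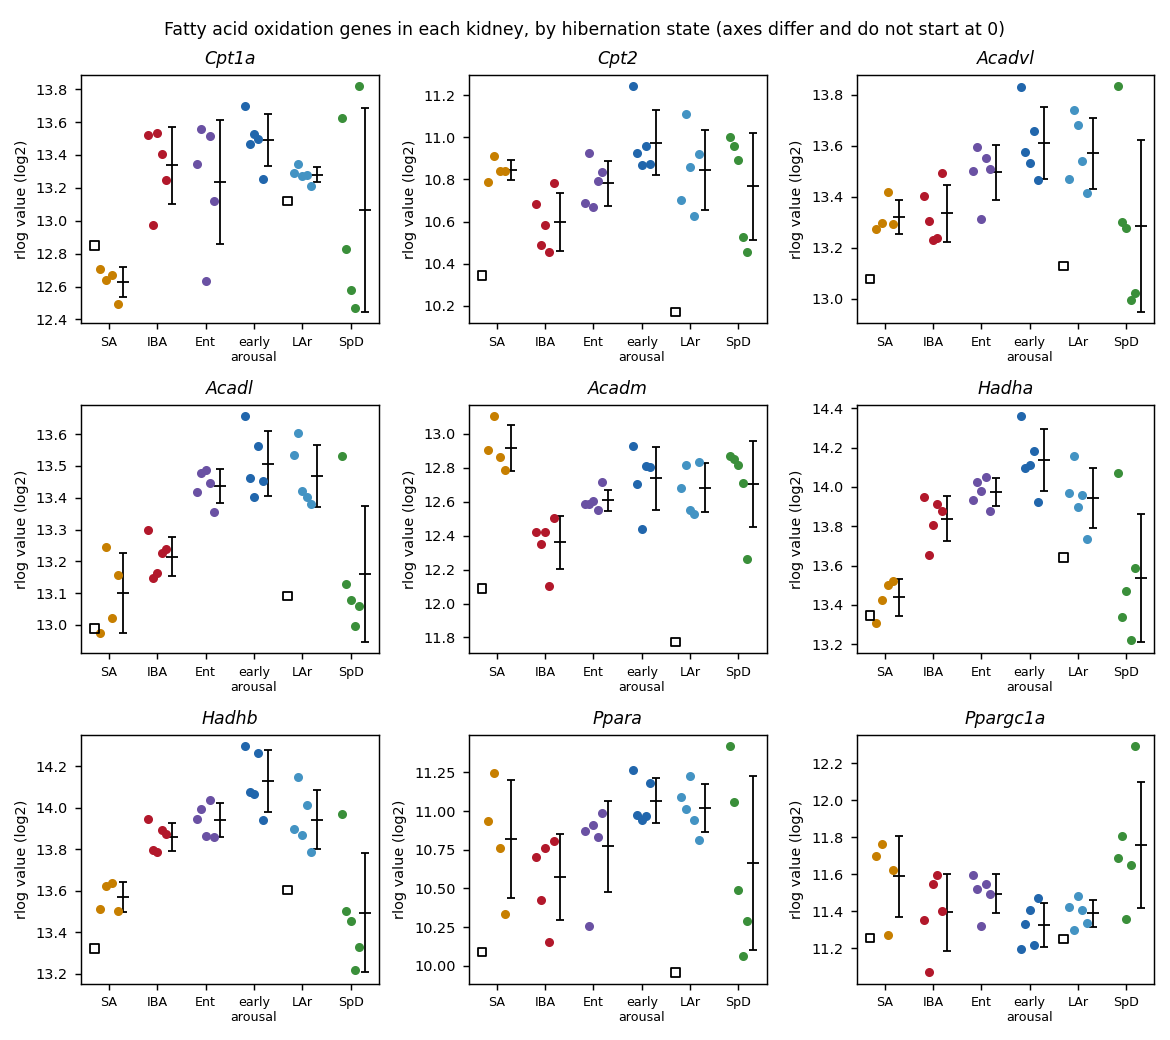
Rlog values (log2 scale) of the 9 genes in each kidney, grouped by state. Filled points are the 29 animals, open squares are animals 137 (SA) and 113 (LAr), and bars give mean ± SD of the filled points. All hibernation points of Hadha and Hadhb lie above all SA points, and the SpD points of most genes are widely spread.

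Among the 9 genes, the 2 subunits of the trifunctional protein had the lowest q between seasons. Hadha encodes the α subunit, which holds the hydratase and long-chain hydroxyacyl-CoA dehydrogenase activities. Its rlog values were 13.31, 13.42, 13.50, and 13.52 in SA. In IBA they were 13.65, 13.81, 13.87, 13.91, and 13.95, and in Ent 13.88, 13.93, 13.98, 14.03, and 14.05. Early arousal gave 13.93, 14.10, 14.11, 14.18, and 14.36, and LAr gave 13.74, 13.90, 13.96, 13.97, and 14.16. The lowest of the 20 hibernation animals, an IBA animal at 13.65, was thus above the highest SA animal. SpD values of Hadha were 13.22, 13.34, 13.47, 13.59, and 14.07, of which only the last was in the range of the hibernation animals. The fitted hibernation difference was 0.48 (SE 0.073), a 1.40-fold higher level, with q = 2.962e-05 in limma.

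Hadhb encodes the β subunit, the thiolase that releases acetyl-CoA, and its levels followed those of Hadha closely. SA animals had rlog values of 13.50, 13.51, 13.62, and 13.64, and the 20 hibernation animals ran from 13.79 to 14.30 with a median of 13.94. The groups did not overlap. Among all 12863 genes, 4.47% separated SA from all hibernation animals in either direction and 1.89% did so with hibernation higher. SpD values of Hadhb were 13.22, 13.33, 13.46, 13.50, and 13.97, again with 1 animal inside the hibernation range. The fitted difference was 0.44 (SE 0.064, 1.35-fold, q = 1.996e-05). In experiment 2 alone, the differences were 0.55 for Hadha (q = 6.719e-05) and 0.55 for Hadhb (q = 2.626e-05), where 39% of all genes were DE. Across the 29 animals, Pearson's r between the subunits was 0.945, given as a description over animals that share states, and each was the gene most like the other among all genes with a symbol. The 2 genes are neighbors in the RefSeq annotation of a different 13-LGS assembly, with no other gene starting between them. Against each active state taken alone, Hadha was higher by 0.52 than in SA (q = 0.0007081) and by 0.45 than in SpD (q = 0.001928). For Hadhb these differences were 0.37 (q = 0.003738) and 0.51 (q = 0.000213).

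Cpt1a, the gene for the entry step that is usually taken to limit the pathway, was low in summer. SA rlog values were 12.49, 12.64, 12.67, and 12.71. IBA values were 12.97, 13.25, 13.41, 13.52, and 13.54, all above SA. Ent values were 12.63, 13.12, 13.34, 13.52, and 13.56, where 1 animal lay inside the SA range. Early arousing animals had 13.25, 13.47, 13.50, 13.53, and 13.70, and LAr animals had 13.21, 13.27, 13.28, 13.29, and 13.34, the tightest group of this gene. SpD animals split, with 12.47, 12.58, and 12.83 near the SA level and 13.63 and 13.82 close to or above the top of the hibernation range. The 3 low animals (84, 83, and 80) were the SpD females and the 2 high ones (77 and 130) the SpD males, and with so few animals sex and individual cannot be told apart. The season difference of Cpt1a was 0.49 (SE 0.126, 1.40-fold, q = 0.004466). Hibernation animals were higher than SA alone by 0.75 (q = 0.003127), whereas the difference from SpD alone was 0.23 and did not pass (q = 0.3249). The difference between IBA and SA was 0.79 (SE 0.232, 1.72-fold, q = 0.01756), and without IBA animal 104 it was 0.76 with q = 0.05336.

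Cpt2, which completes the carnitine shuttle on the matrix side, had no seasonal difference that could be detected (-0.01, 95% interval -0.13 to 0.12, q = 0.9504). Its mean rlog levels were 10.85 ± 0.05 (SD, n = 4) in SA, 10.60 ± 0.14 in IBA, and 10.97 ± 0.16 in early arousal (n = 5 each). The 5 IBA animals, at 10.45, 10.49, 10.58, 10.68, and 10.79, were below the lowest SA animal, although the nearest values of the 2 groups both round to 10.79. The IBA minus SA difference was -0.34 (SE 0.115, q = 0.03687). It was lost in 8 of 29 fits that left out 1 animal (SA 138, 139, 140, or 141, IBA 70, 75, or 104, or SpD 130), with q up to 0.1246 without IBA animal 104. The call was also lost without the experiment term (-0.26, q = 0.08533), in experiment 2 alone (-0.28, q = 0.1227), and with animal weights (-0.27, q = 0.1008).

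The 3 acyl-CoA dehydrogenases did not move as a group. Acadl, for long chains, had rlog values of 12.97, 13.02, 13.16, and 13.25 in SA and 13.15, 13.16, 13.22, 13.24, and 13.30 in IBA, so these states overlapped. Ent animals had 13.36, 13.42, 13.45, 13.48, and 13.49, all above IBA. Early arousal ran from 13.40 to 13.66 and LAr from 13.38 to 13.60. SpD animals were at 13.00, 13.06, 13.08, and 13.13, and the remaining animal was at 13.53. The season difference of Acadl was 0.28 (SE 0.050, 1.21-fold, q = 0.0001799), and it was 0.28 against SA alone (q = 0.004785) and 0.28 against SpD alone (q = 0.004277).

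Acadvl, for very long chains, had mean levels of 13.32 ± 0.07 in SA (n = 4), 13.34 ± 0.11 in IBA, 13.50 ± 0.11 in Ent, 13.61 ± 0.14 in early arousal, and 13.57 ± 0.14 in LAr (n = 5 each). In SpD it was 13.29 ± 0.34, with 1 animal at 13.83 and the others between 13.00 and 13.30. The season difference of Acadvl was 0.20 (SE 0.071, 1.15-fold, q = 0.03234). It had the highest q of the 7 seasonal calls and was lost in 7 of 29 fits that left out 1 animal (SA 138, 139, or 141, or SpD 80, 83, 84, or 130), with q between 0.05053 and 0.08204. Against neither active state alone did Acadvl pass, with 0.15 against SA (q = 0.2851) and 0.25 against SpD (q = 0.05188).

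Acadm, for medium chains, went the other way. SA had the highest mean rlog level, with animals at 12.79, 12.86, 12.90, and 13.10. IBA had the lowest mean, with animals at 12.10, 12.35, 12.42, 12.42, and 12.50. Ent animals were close together at 12.55, 12.58, 12.58, 12.61, and 12.71, above every IBA animal and below every SA animal. Early arousal ran from 12.44 to 12.93 and LAr from 12.53 to 12.83. SpD animals were at 12.71, 12.82, 12.85, and 12.87, and the remaining animal was at 12.26. The season difference of Acadm was -0.21 (SE 0.064, 1.16-fold lower in hibernation, q = 0.01305). It was -0.36 against SA alone (q = 0.004193) and -0.06 against SpD alone (q = 0.6448), and it did not pass in experiment 2 alone (-0.12, q = 0.3005) or with animals 113 and 137 included (-0.16, q = 0.2415). The decrease from SA to IBA had the lowest q of any pair of states among the 9 genes (-0.65, SE 0.118, 1.57-fold lower, q = 0.0005264). Between the same states, 8 of 12 proximal tubule markers were lower in IBA with a median of -0.89, where 12.5% of all genes were DE and lower. Among the 8 were the phosphate transporter Slc34a1 (-1.59, q = 0.002785) and the glucose transporter Slc5a2 (-2.25, q = 0.002393). Another of these markers, Slc27a2 (-0.81, q = 0.02449), is also counted among the PPAR targets below. The part of the markers in the Acadm difference was not tested.

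Ppara, the gene for PPARα, was the one gene of the 9 that did not pass the test across states. Its mean rlog levels ran from 10.57 ± 0.28 in IBA to 11.07 ± 0.15 in early arousal (n = 5 each), and SpD animals alone ran from 10.06 to 11.42. The season difference was 0.11 (95% interval -0.14 to 0.37, q = 0.5055). In experiment 2 alone it was 0.37 (q = 0.02951). Every IBA animal (10.15 to 10.81) was below every LAr animal (10.81 to 11.23), although the nearest values of the 2 groups round to the same level. The fitted difference of -0.59 did not pass (q = 0.06289).

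Ppargc1a, the gene for PGC-1α, was lower in the hibernation season. SA rlog values were 11.27, 11.62, 11.70, and 11.76, and SpD values were 11.36, 11.65, 11.69, 11.80, and 12.29. IBA values were 11.07, 11.35, 11.40, 11.55, and 11.60. The 15 other hibernation animals lay between 11.19 and 11.60, so that 2 active animals (SA at 11.27 and SpD at 11.36) were within the hibernation range and the other 7 above it. The season difference was -0.27 (SE 0.075, 1.21-fold lower in hibernation, q = 0.006675). It was -0.42 against SpD alone (q = 0.004001), and -0.13 against SA alone, which did not pass (q = 0.3785). Thus, between seasons, the coactivator gene and Acadm were lower and 5 of the enzyme genes higher, while Cpt2 and the receptor gene did not pass. Against SpD alone, Ppargc1a was lower and Hadha, Hadhb, and Acadl were higher, whereas Cpt1a and Acadvl did not pass. Against SA alone, where Ppargc1a did not pass, no such opposite change of the coactivator gene was found.

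**Figure D2:**
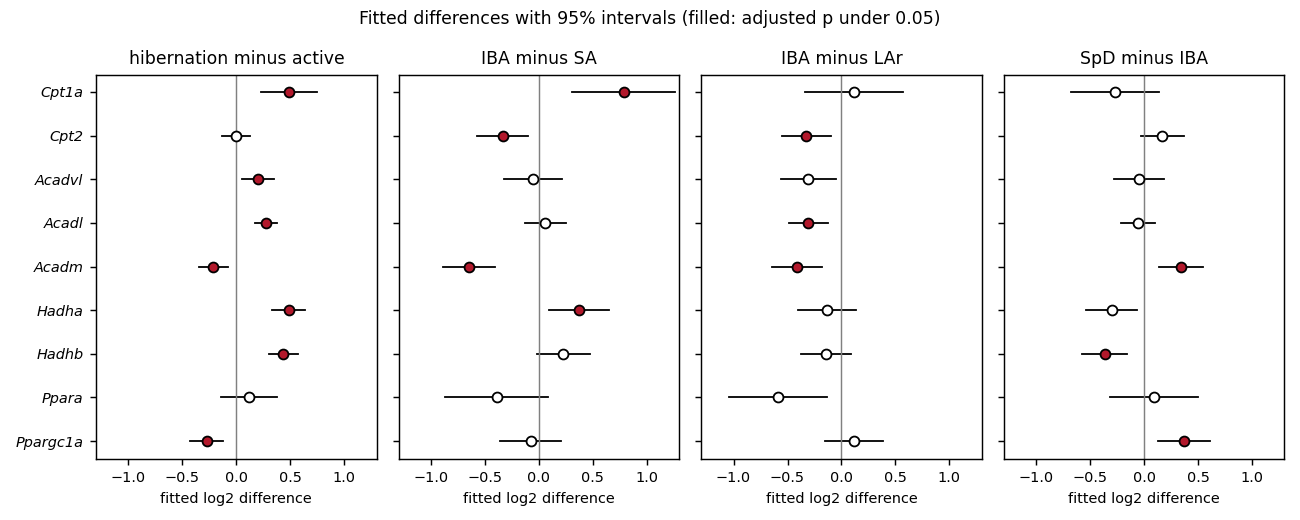
Fitted log2 differences of the 9 genes with 95% intervals in 4 comparisons, filled where q was under 0.05. In the season comparison 5 genes lie right of 0 and 2 left of it among the filled points, and Acadm is left of 0 in IBA minus SA and right of it in SpD minus IBA.

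When states were ranked by mean level, early arousal was the highest for 7 genes (Cpt1a, Cpt2, Acadvl, Acadl, Hadha, Hadhb, and Ppara) and the lowest for Ppargc1a. SA was the lowest for 3 genes (Cpt1a, Acadl, and Hadha), IBA for 3 (Cpt2, Acadm, and Ppara), and SpD for Acadvl and Hadhb. Of 45 pairs of neighbors in these orders, 3 had animals that did not overlap, which were Ent above IBA for Acadl and for Acadm and IBA above SA for Hadhb. The peak in early arousal is thus a rank of means. No gene of the 9 was DE between early arousal and Ent, where 0.257% of all genes were DE. At an unadjusted p under 0.05 in limma there were 3 of the 9 (Cpt2 0.29, Hadhb 0.25, and Ppargc1a -0.29). That rule is looser, and the share of all genes that meet it was not counted. None was DE between LAr and early arousal either, where 0.575% of all genes were DE and no gene of the 9 had an unadjusted p under 0.05.

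All calls between pairs of states involved IBA, which is in 4 of the 7 pairs tested. They did not hold in a fit of only the groups compared, where 0 of the 9 genes were DE for IBA against SA, IBA against LAr, or SpD against IBA (2.94%, 1.41%, and 3.38% of all genes). With all 31 animals the counts were 1, 0, and 1 (10%, 8.43%, and 7.74% of all genes). Against SA, 4 of the 9 genes were DE (Cpt1a and Hadha higher, Acadm and Cpt2 lower in IBA), where 22.9% of all genes were DE (10.4% higher and 12.5% lower). For 5 of the 9, IBA and SA animals did not overlap, against 18.8% of all genes. The call of Hadha (0.37, q = 0.0498) was at the threshold and was lost in 22 of 29 fits without 1 animal, with q up to 0.1461 without IBA animal 104. Against LAr, the 3 genes Acadm (-0.41, q = 0.0149), Acadl (-0.31, q = 0.01817), and Cpt2 (-0.33, q = 0.03982) were lower in IBA, where 18% of all genes were DE and 8.03% were lower. Acadm, Acadl, and Ppara did not overlap between IBA and LAr, as was the case for 13.7% of all genes. Without IBA animal 104, Acadm and Cpt2 no longer passed against LAr (q = 0.08904 and 0.137), and without LAr animal 111, Acadl (q = 0.05002) and Cpt2 (q = 0.1087) did not. Cpt2 also did not pass against LAr without the experiment term (-0.25, q = 0.1022). Of the proximal tubule markers, 1 of 12 was lower in IBA than in LAr (median -0.54). It was Slc27a2 (-0.73, q = 0.03717), which is also counted among the PPAR targets below. Of the medulla markers, 2 of 3 were higher in IBA (9.93% of all genes). The part of the markers was not tested. Between Ent and IBA no gene of the 9 was DE, where 13.1% of all genes were DE. At the looser unadjusted p under 0.05, for which no share of all genes was counted, there were 2. Those were Acadl (0.22, q = 0.06012) and Acadm (0.25, q = 0.09991), and Ent and IBA animals did not overlap for either, against 7.74% of all genes. In experiment 1 the Ent minus IBA difference of means was 0.26 for Acadl and 0.19 for Acadm (n = 3 per state), and in experiment 2 it was 0.17 and 0.33 (n = 2 per state).

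From IBA to SpD, Acadm was higher in SpD (0.34, q = 0.02743), as was Ppargc1a (0.37, q = 0.04185), and Hadhb was lower (-0.36, q = 0.01845), where 11.9% of all genes were DE (6.48% higher and 5.42% lower in SpD). Of the proximal tubule markers, 1 of 12 was higher in SpD (median 0.19). The difference of means for Acadm was 0.45 in experiment 1 (n = 3 per state) and 0.18 in experiment 2 (n = 2 per state). For Ppargc1a it was 0.29 and 0.47, and for Hadhb -0.20 and -0.61. The calls of Acadm and Ppargc1a were each lost in 7 of 29 fits without 1 animal and that of Hadhb in 2 of 29. All 3 were lost without IBA animal 104 (q = 0.08814, 0.05224, and 0.05121). Between SA and SpD, the 2 active states, no gene of the 9 was DE, where 10.5% of all genes were DE, and 0.739% without SpD animal 130. An unadjusted p under 0.05, for which no share of all genes was counted, was found for Cpt1a (-0.51, q = 0.145), Acadm (0.30, q = 0.09134), and Ppargc1a (-0.29, q = 0.1663). In experiment 2 alone, which has 2 SpD animals, 5 genes were DE and higher in SA (Cpt2, Acadm, Acadvl, Hadhb, and Ppara), where 26.4% of all genes were DE. Both of those animals (84 and 130) are described next.

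The SpD animals differed from one another. Animal 77 had the highest SpD level of 7 genes, with 14.07 for Hadha where the other 4 lay between 13.22 and 13.59, and 13.53 for Acadl where the others lay between 13.00 and 13.13. For 5 of the 7 genes whose SA and hibernation means differed by more than 0.1 (Cpt1a, Acadl, Acadvl, Hadha, and Hadhb), its level was nearer the mean of the hibernation states than that of SA. Across all genes, its root mean square distance was 0.3271 to the other SpD animals and 0.276 to LAr, its nearest group. Other animals were also nearest another group, among them SpD 130 (0.475 to IBA, 0.4803 to its own group) and IBA 171. The same held for Ent 62, 64, 155, and 167 and early arousing 156 and 158. The proximal tubule markers of animal 77 (15.07) were level with the highest of the other 4 SpD animals (13.45 to 15.06). Its thick limb, fibroblast, medulla, and both collecting duct marker lists were below all 4, with medulla at 10.68 against 11.21 to 12.94. Animal 130 had the highest SpD levels of Cpt1a (13.82) and Ppargc1a (12.29) and the lowest of Acadm (12.26) and Cpt2 (10.46). Its proximal tubule markers averaged 13.45, and those of its 4 group mates 14.89 ± 0.30 (SD). Its medulla markers averaged 12.94, and theirs 11.35 ± 0.61. Animal 84 had the lowest SpD level of 6 genes. Of the same 7 genes, animals 80, 83, 84, and 130 were nearer the hibernation mean for 0, 1, 1, and 2. Animals 77 and 130 were the 2 males of the group. Without animal 77, all 7 seasonal calls remained, and without animal 130 or animal 84, 6 remained and Acadvl did not.

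**Figure D3:**
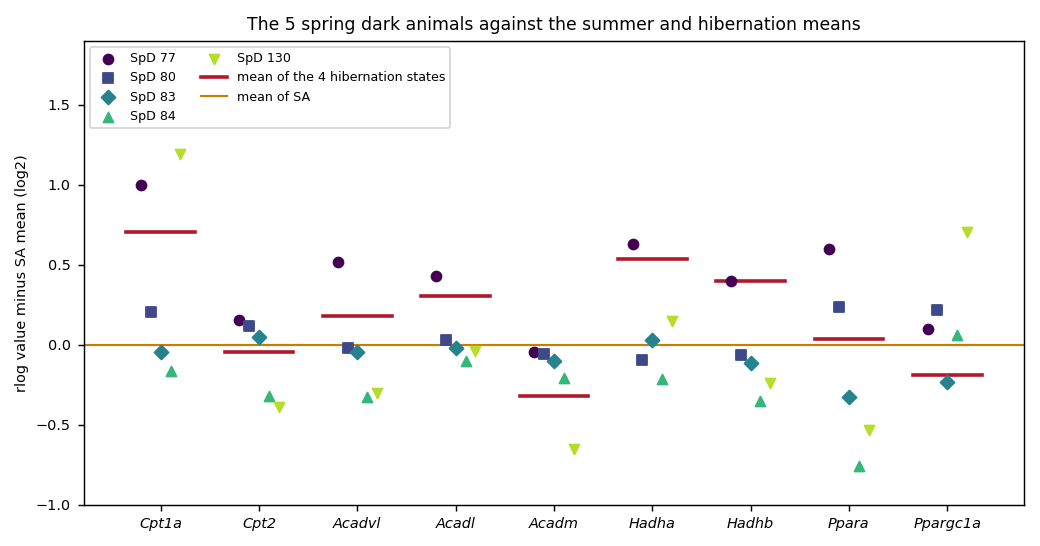
Level of each gene in the 5 SpD animals as the difference from the SA mean (log2), with bars at the mean of the 4 hibernation states and a line at SA. Animal 77 (circles) is nearer the hibernation bar for 5 of the 7 genes whose bar is more than 0.1 from the SA line, and animal 130 (down triangles) is highest for Cpt1a and Ppargc1a and lowest for Acadm.

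The 2 animals shown apart were low for most of the pathway. Animal 113 was below all 5 other LAr animals for all 9 genes, with the widest gaps for Ppara (9.96 against a mean of 11.02), Acadm (11.77 against 12.68), and Cpt2 (10.17 against 10.84). Animal 137 was below the other 4 SA animals for 6 genes, among them Acadm (12.09 against 12.91) and Cpt2 (10.34 against 10.85). It was above them for Cpt1a (12.85 against 12.63) and within their range for Acadl and Hadha. In both animals the proximal tubule markers were lower (13.72 against 14.62 in LAr, 14.13 against 15.14 in SA). The medulla markers were higher (13.47 against 9.92 in LAr, 14.41 against 11.08 in SA). What these marker levels contribute to the low pathway levels was not tested. With both animals in the fit, 6 of the 9 genes were DE between seasons, where 28.8% of all genes were, and Acadm was the one lost.

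**Figure D4:**
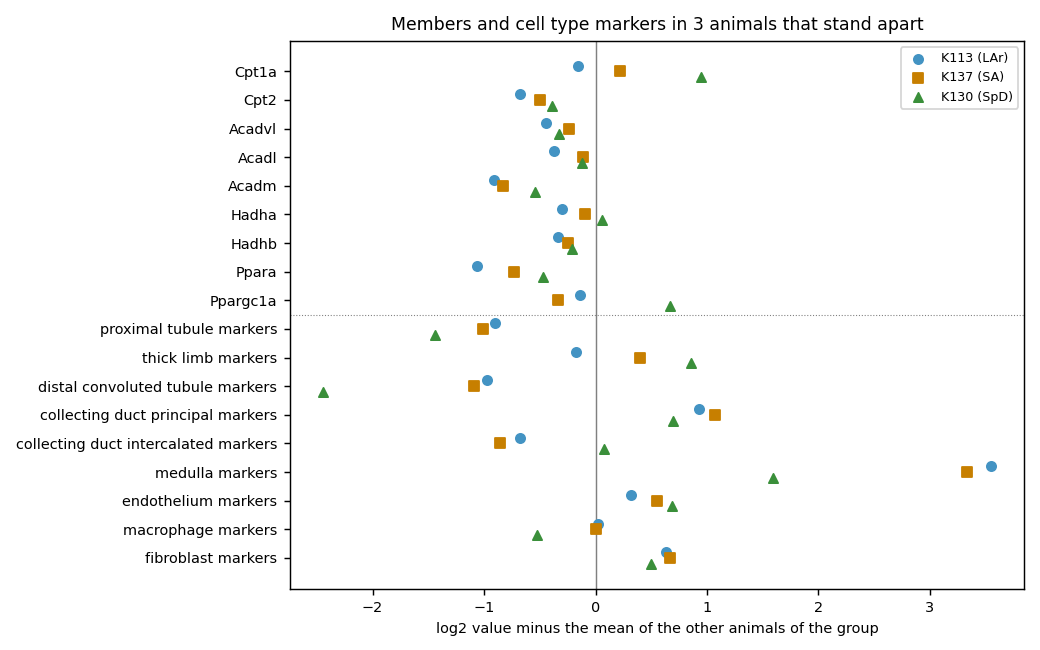
Differences (log2) of animals 113 (LAr), 137 (SA), and 130 (SpD) from the mean of the other animals of their group, for the 9 genes and for mean levels of cell type markers. Animal 113 lies left of 0 for all 9 genes, and all 3 animals lie left of 0 for proximal tubule markers and right of 0 for medulla markers.

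Wider lists of the pathway were counted with the same fit. Of 13 genes of acyl-CoA activation and the carnitine shuttle in the table, 8 were DE between seasons, where 33.4% of all genes were. They were 4 higher and 4 lower in hibernation (16.6% and 16.8% of all genes), and the median difference over the list was 0.14. Acsl4, an acyl-CoA synthetase that prefers arachidonic acid, was higher by 0.68 (q = 3.814e-07). Slc25a20, the carnitine-acylcarnitine carrier between CPT1 and CPT2, was higher by 0.50 (q = 0.0002124), from 10.74 ± 0.10 in SA to between 11.17 and 11.32 in the hibernation states. The synthetases Acsl1 (-0.56, q = 2.133e-06) and Acsf2 (-0.42, q = 0.0002592) were lower.

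Of 22 other genes of mitochondrial β-oxidation and linked acyl-CoA breakdown, 12 were DE between seasons, where 33.4% of all genes were. They were 4 higher and 8 lower in hibernation (16.6% and 16.8% of all genes), and the median over the list was -0.12. Acot2, a matrix acyl-CoA thioesterase, was higher by 0.57 (q = 0.002539). Its mean level in IBA (11.43) was close to those in SA (11.29) and SpD (11.42). In Ent, early arousal, and LAr it was between 11.91 and 12.33. Acadsb (-0.47, q = 2.974e-05) and Acad8 (-0.47, q = 9.025e-07), dehydrogenases of branched-chain amino acid breakdown, and Decr1 (-0.42, q = 1.796e-05), which handles unsaturated chains, were lower. Against SA, 14 of the 22 were DE in IBA, and all 14 were lower in IBA, with a median of -0.47 where the median of all genes was 0.03 and 12.5% of all genes were DE and lower. These are the states between which 8 of 12 proximal tubule markers were also lower in IBA. Against LAr, 11 of the 22 were DE and lower in IBA (8.03% of all genes). From IBA to SpD, 8 of the 22 were DE and higher in SpD (6.48% of all genes).

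Peroxisomes shorten very long and branched chains before mitochondria take them up. Of 19 peroxisomal genes, 9 were DE between seasons (33.4% of all genes), 1 higher and 8 lower in hibernation (16.8% of all genes lower), with a median of -0.06. The one that rose was Ehhadh, the peroxisomal bifunctional enzyme (0.67, q = 0.001298). Hacl1, for α-oxidation (-0.35, q = 0.005862), and Acox2, the branched-chain acyl-CoA oxidase (-0.30, q = 0.0007269), were lower. Against SA, 11 of the 19 were DE in IBA and all 11 lower (12.5% of all genes lower). With animals 113 and 137 in the fit, 5 peroxisomal genes were DE between seasons, where 28.8% of all genes were.

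Among 38 regulators of the pathway, 10 were DE between seasons, where 33.4% of all genes were. They were 5 in each direction (16.6% of all genes higher and 16.8% lower), and the median over the list was -0.02. Lpin1, a coactivator of PPARα with PGC-1α, was higher by 0.26 (q = 0.01775), and the nuclear receptor Esrrb was lower by 0.78 (difference -0.78, q = 0.01449). Levels of Esrrb were low and widely spread, with 8.49 ± 0.94 (SD, n = 5, median 7.90) in SpD and 7.81 ± 0.80 (n = 4) in SA. Its hibernation means ran from 7.07 in LAr to 7.59 in Ent, and the highest IBA animal was at 8.56, so the seasons overlapped. Pprc1, a relative of PGC-1α, did not pass between seasons (-0.18, q = 0.06352) and was higher in IBA than in LAr (0.60, q = 0.003064). Nrip1, a corepressor, did not pass between seasons (0.16, q = 0.1926). Of 25 genes listed as PPAR targets, which share some genes with the lists above, 14 were DE between seasons (33.4% of all genes). They were 9 higher and 5 lower in hibernation (16.6% and 16.8% of all genes), and the median over the list was 0.17. Creb3l3, a fasting-induced transcription factor, was higher by 0.99 (q = 0.001119) and Cyp4a11, a fatty acid ω-hydroxylase, by 0.72 (q = 0.01847). The symbol Cyp4a11 is carried by 3 rows of the table, and the one of highest mean was used, so reads may be split between them. Its 2 active states differed (SA minus SpD -1.58, q = 0.02194), with SA at 11.54 and SpD at 13.01, inside the hibernation means of 12.76 to 13.39. Fabp3, a fatty acid binding protein, was lower in hibernation (-0.87, q = 1.669e-06).

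**Figure D5:**
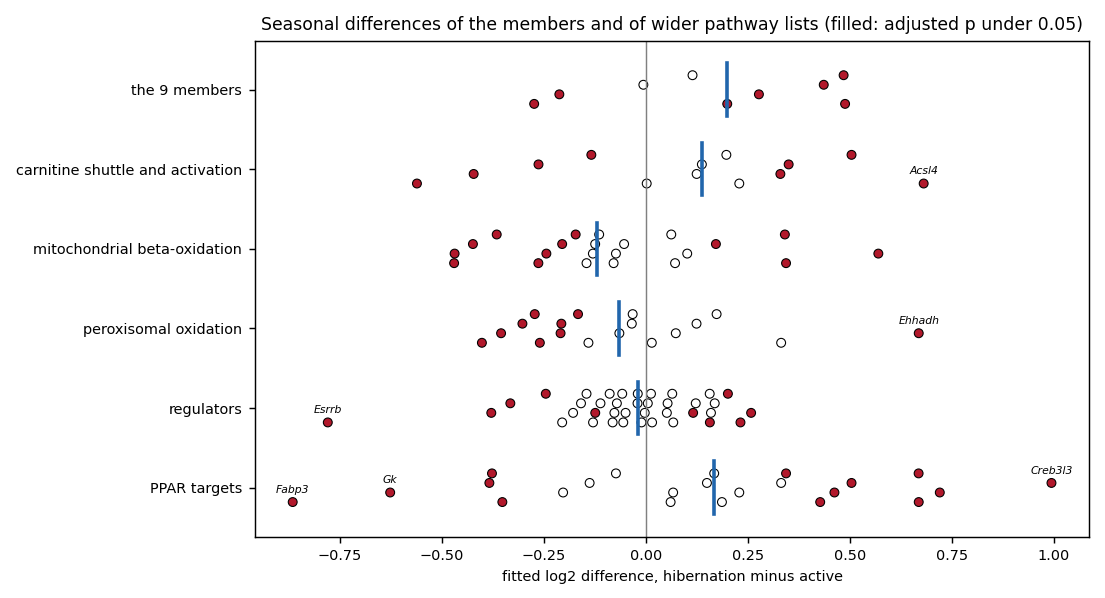
Fitted hibernation minus active differences (log2) of the 9 genes and of 5 wider lists, 1 point per gene, filled where q was under 0.05, with a blue bar at the list median. Filled points lie on both sides of 0 in every list, and 8 of the 12 filled points of mitochondrial β-oxidation lie left of 0. A few genes not reported here are left out of the points but counted in the medians.

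The genes whose levels were most like each of the 9 over the 29 animals were found by Pearson's r, as a description with no test, since animals share states and cell composition. For Hadha they included Hadhb (0.945) and Acadl (0.900), and for Hadhb they included Hadha and Ehhadh (0.893). Acadl was most like Hadha, Acot4 (0.877), and Hadhb (0.877), and Acadvl most like Lonp2 (0.901), Ehhadh (0.858), and Hadhb (0.842). Each of these 4 enzymes had at least 1 of the others among its 3 nearest genes. Cpt1a had Uhrf1bp1 (0.880), Adgrl1 (0.852), and Asap2 (0.832), and Cpt2 had Crat (0.850), the carnitine acetyltransferase, with Slc25a13 (0.832) and Coq8a (0.83). Acadm had Nfs1 (0.910), Sfxn1 (0.898), and Atp6v1b2 (0.893), none of them among the 9. Its r with Hadha was -0.191 and with Cpt1a -0.422, against 0.736 with Cpt2. Ppara had Helz (0.853), Stat5b (0.834), and Pskh1 (0.820), and its highest r within the 9 genes was 0.663 with Acadvl. Ppargc1a had Klhl38 (0.876), Smad9 (0.865), and Sgms1 (0.855), and its r with Hadhb was -0.587.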

How the data were processed

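Poly(A) RNA from flash-frozen kidney pieces of 31 animals was sequenced by the authors in 2 experiments with different library kits and instruments. Per the study's methods, the authors used cutadapt for trimming and HISAT2 to take out mitochondrial reads, quantified transcripts with Salmon on HiC_Itri_2, summed them to genes with tximport, kept genes with an rlog value of at least 7 in most animals of a group, and applied the DESeq2 rlog and limma's batch removal. The deposited values are the authors' batch-corrected rlog values on the log2 scale. They ran from 4.109 to 19.794, with animal medians between 9.741 and 9.882. No counts or depths come with these values, and the precision given is that of the spread between animals, and the study's count test was replaced.

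The deposited values of 29 animals were modeled with limma 3.58.1 (R 4.3.3), with terms for state, sex, and experiment and an intensity trend, and p-values were adjusted by Benjamini-Hochberg over 12863 genes within each comparison. The fit was tested on simulated data. Because the batch effect had been removed before deposit, the fit does not count the degree of freedom that this took. Fitted differences include the sex and experiment terms and can differ from gaps between state means. The 9 genes and all lists were chosen with earlier results of these data known, and the lists were written from general knowledge. Up to 4 genes per wider list were named, those with the widest range of state means among genes DE across states, and for each of the 9 genes the 3 genes of highest Pearson's r. Some genes under this rule are not reported here. Of the 12863 genes, 919 had no symbol. All 9 genes matched a symbol in RefSeq, whose assembly (mIctTri1.hap1) differs from that of the authors, and neither positions nor sequences are given. Alternative settings were the inclusion of all 31 animals, each experiment alone, no experiment term, median centering, a minimum mean of 8, no intensity trend, animal weights, a q of 0.001, a fit restricted to the compared groups, leaving out every animal in turn, and, added after the data were seen, each active state alone. Figures were drawn with matplotlib 3.10.9.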

Additional observations from a re-analysis of the deposited data

Results flagged for a closer look

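An animal was picked out where the gap between the highest or lowest value of a group and its nearest neighbor was above Dixon's 95% critical share of the group's range. This was looked for in 54 groups of the 29 animals and again in 18 groups with animals 113 and 137 included, and chance alone flags about 1 group in 20. It found 7 values.

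Cpt2 was lowest in SA animal 137 at 10.34, where the other SA animals lay between 10.79 and 10.91, and highest in early arousing animal 154 at 11.24, where the others lay between 10.87 and 10.96. Acadm was lowest in LAr animal 113 at 11.77 (others 12.53 to 12.83) and in SpD animal 130 at 12.26 (others 12.71 to 12.87). Acadl was highest in SpD animal 77 at 13.53 (others 13.00 to 13.13). Ppara was lowest in Ent animal 64 at 10.26 (others 10.83 to 10.99) and in LAr animal 113 at 9.96 (others 10.81 to 11.23). Animals 113, 130, and 137 also had the lower proximal tubule and higher medulla marker levels given above, and their part in these values was not tested.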

How the results depend on the processing

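The count of the 9 genes that were DE depended most on the pairwise comparisons. With all 31 animals it went from 8 to 5 across states, from 4 to 1 for IBA against SA, from 3 to 0 for IBA against LAr, and from 3 to 1 for SpD against IBA. At a q of 0.001 these counts were 3, 1, 0, and 0, and the season count went from 7 to 3. In experiment 2 alone, SA against SpD went from 0 to 5, IBA against LAr to 1, and SpD against IBA to 1, and in experiment 1 alone SpD against IBA went to 0. Fitted on only the groups compared, SA against SpD gave 1 and IBA against SA, IBA against LAr, and SpD against IBA gave 0. With animal weights, Ent against IBA gave 1 and IBA against LAr and SpD against IBA gave 5 each, and median centering gave 1 for Ent against IBA. The cause was not tested. Hibernation minus SpD alone gave 4 and minus SA alone 5, both chosen after the data were seen. No called difference was reversed in any of these fits.

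With each animal left out, the counts ranged from 6 to 8 across states, from 6 to 7 between seasons, from 1 to 5 for IBA against SA and for IBA against LAr, from 0 to 3 for SpD against IBA, from 0 to 1 for Ent against IBA and for SA against SpD, and were 0 for both arousal comparisons. The lowest counts were 1 for IBA against SA without IBA 104, 1 for IBA against LAr without IBA 104 or LAr 111, and 0 for SpD against IBA without IBA 104. Hadha, Hadhb, and Acadl kept their seasonal call and direction at q under 0.05 in all settings in which the season comparison was fitted. It was not fitted in experiment 1 alone, which lacks SA and both arousal groups. The fit of only the groups compared was made for pairs of states and not for the seasons. No paired analysis was possible because the animal numbers are unique and no 2 groups share one.

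Only the spread between 4 to 5 animals per state sets the precision, SA and both arousal groups have no animals in experiment 1, and low-count genes, whose rlog values are shrunken, cannot be told apart from well-measured ones.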

Other observations

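Sex was a term of the fit, and none of the 9 genes differed between males and females at q under 0.05 (q between 0.8406 and 0.9971). A seasonal difference that itself differed between sexes was not found in limma at q under 0.05 for any of the 9. The widest such term was that of Cpt1a, whose hibernation minus active difference was 0.74 smaller in males (interaction -0.74, unadjusted p = 0.002034, q = 0.778). Only 2 SpD animals are male, animals 77 and 130, and their Cpt1a levels (13.63 and 13.82) were above those of the 3 SpD females (12.47 to 12.83). The SA males (12.67 and 12.71) and SA females (12.49 and 12.64) lay close together. The term of Hadha was -0.38 (unadjusted p = 0.008559, q = 0.8756). The experiment term of the 9 genes had q of at least 0.87. The batch effect had been removed from these values before the fit, so this cannot show whether the experiments differed.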
